A study of Homo sapiens with 18 samples.

Results

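The genes described here are the clustered histone genes, taken as every gene ID of the 5 deposited tables that begins with HIST1H, HIST2H, HIST3H or HIST4H, the older symbols of the histone gene clusters. The rule found 54 genes among 16616 distinct gene IDs, of which 5 were H1, 13 H2A, 17 H2B, 9 H3 and 10 H4 genes. The study asked how CM03, a small molecule that binds G-quadruplexes, changes transcription in MIA PaCa-2 pancreatic carcinoma cells and in GemMIA-R3, a line selected from them in rising concentrations of gemcitabine. The 18 RNA-seq libraries, 3 for each of 6 groups, were from GemMIA-R3 cells given 400 nM CM03 for 6 h or 24 h, GemMIA-R3 cells given PBS vehicle for the same times, and parental cells without CM03 at both times. Gemcitabine was withdrawn from GemMIA-R3 cells before the experiments, and nothing in the labels says whether the 3 libraries of a group were separate cultures. The tables of CM03 in parental cells come from libraries of an earlier study that were not analysed here, so cell line and study cannot be told apart. They are called the parental tables here. The table of GemMIA-R3 against parental cells also rests on parental libraries, those of this study. It is counted below among the tables of GemMIA-R3 cells, so a listing in it is not of that line alone. A gene missing from the parental tables is not thereby missing from parental cells.

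Each table lists gene IDs together with the fold changes and false discovery rates of the study's own comparison, which were not used. Values per library were not used here, so no level of a histone gene is given, no test between groups was made and the depth is unknown. What remains is which histone genes each table lists, the number of putative quadruplex motifs (PQs) given for each gene in the parental tables, and the sequence of the genes in the reference genome. Of the epithelial markers checked, KRT8, KRT18 and KRT19 are listed in all tables and EPCAM in the parental tables alone. Both mesenchymal markers checked, VIM and ZEB1, are also listed in all tables. Of 4 immune markers 2, among them PTPRC, are in the CM03 tables of GemMIA-R3 cells and 1 is in each other table. The endothelial PECAM1 is in every table of GemMIA-R3 cells and CDH5 in none. Of 3 fibroblast markers 1 is in the 6 h table of GemMIA-R3 cells and 2 are in each other table, and DCN is in none. A listed marker is not a level. How a gene entered a table is not stated, so a gene that is not listed is not shown to be silent. The HIST genes hold near-identical copies and how reads shared between copies were counted is not stated, so the listing of any single copy is uncertain.

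Histones are the proteins around which DNA is wound. H2A, H2B, H3 and H4 form the core of the nucleosome, and H1 binds the DNA between cores. Most clustered histone genes are transcribed in S phase to package newly made DNA, and their mRNAs usually end in a stem-loop instead of a poly(A) tail. The stem-loop is bound by SLBP, which takes part in the processing, export and translation of these mRNAs. Some clustered genes can also give longer, polyadenylated transcripts.

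The stem-loops are printed here because they are the feature that sets this gene class apart, and all 52 coding members carried one within 150 bases past the stop codon on GRCh38. They fell into 9 distinct sequences, with the stem in capitals and the loop in lower case. The first was held by 31 members, the second by 8 and the third by 7.
Most frequent stem-loop: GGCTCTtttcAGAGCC
Stem-loop of H4 genes: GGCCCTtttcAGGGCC
Stem-loop with a changed loop: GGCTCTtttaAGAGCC
The second sequence was found in H4 genes such as HIST1H4C on chromosome 6 and HIST4H4 on chromosome 12. The third was found in HIST1H2BD, HIST1H2BK and HIST2H2AB, among others. The remaining 6 sequences were held by 1 member each. The stem-loop began between 26 and 66 bases past the stop codon, with a median of 39 bases. In the same window 84 of 20033 protein-coding genes, or 0.419%, had a match. These were the 52 members, 19 annotated histone cluster genes that no table lists, and 13 other genes, including H2AX, the variant that is phosphorylated at DNA breaks.

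The tables differed widely in how many clustered histone genes they list. The table of CM03 at 24 h in GemMIA-R3 cells lists 53 of the 54 genes (98.1%), beside 85.7% of all 16616 gene IDs. That of CM03 at 6 h in the same cells lists 39 (72.2%), beside 77.9%. The table of GemMIA-R3 against parental cells at 24 h lists 50 (92.6%), beside 84.5%. Both tables of CM03 in parental cells list the same 20 genes, since these tables share all of their 13503 gene IDs. These are 37.0% of the members, beside 81.3% of all gene IDs. The first 2 tables hold 14237 and 12939 gene IDs, and the table of the lines holds 14047.

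**Figure D1:**
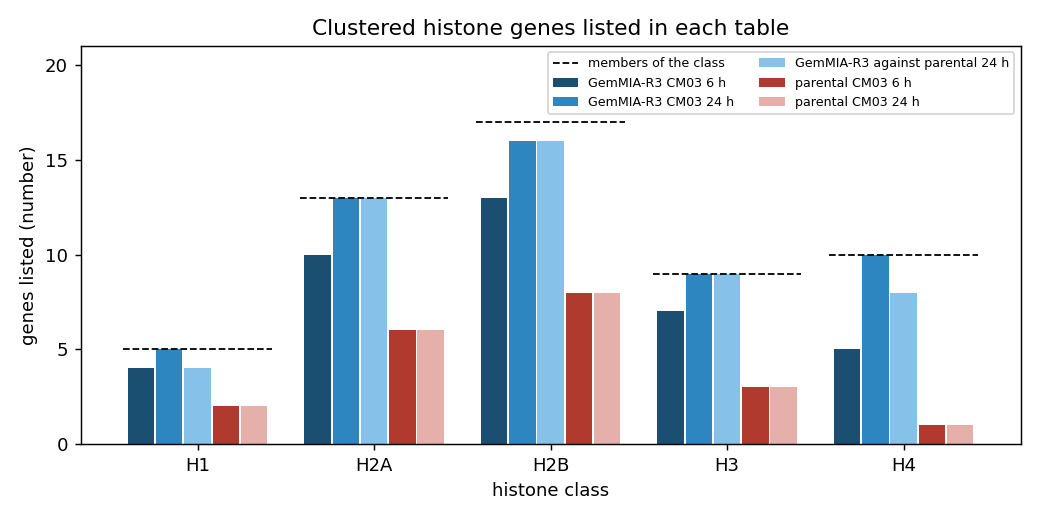
Number of clustered histone genes listed in each of the 5 tables (bars), by histone class on the x axis, with the number of members of each class as a dashed line. The parental tables list 1 of 10 H4 genes and 8 of 17 H2B genes, and the GemMIA-R3 table of CM03 at 24 h lists all genes but 1. Members are genes listed in at least 1 table.

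Against all annotated protein-coding genes, the coding histone genes were listed less often in the parental tables and more often in the 24 h tables of GemMIA-R3 cells. RefSeq annotates 71 coding genes under the same older symbols. The parental tables list 18 of them (25.4%), where they list 62.4% of 20056 annotated protein-coding genes at 6 h and the same 62.4% at 24 h. The GemMIA-R3 tables of CM03 list 38 (53.5%) at 6 h, beside 57.3% of protein-coding genes, and 52 (73.2%) at 24 h, beside 61.4%. The table of GemMIA-R3 against parental cells lists 49 (69.0%), beside 61.0%. These shares are descriptions of the tables and were not tested.

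The 19 coding genes listed in no table include the copies H2AC18 and H2AC19, H3C14 and H3C15, and H4C14 and H4C15 of the cluster on chromosome 1, and H1-1, a linker histone of chromosome 6. Most genes that serve the histones and most variant histone genes were listed, beside 57.3% to 62.4% of annotated protein-coding genes across the tables. These lists are short and were not tested. All 12 genes of a list for the synthesis and processing of histone mRNA were listed in every table, among them NPAT, a coactivator of histone transcription, and SLBP. Of 12 variant histone genes outside the clusters, 10 were listed in the parental tables and 11 in the 24 h tables of GemMIA-R3 cells. H3F3A was listed in no table, like the 19 coding genes above. Of 9 histone chaperones, 9 were listed in every table but that of CM03 at 6 h in GemMIA-R3 cells, which lacks DAXX, a chaperone of histone H3.3.

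Among the classes, H4 genes were the least often listed in the parental tables. Only HIST1H4H of 10 H4 genes was in them, against 5 of 10 in the GemMIA-R3 table of CM03 at 6 h, 10 of 10 in that at 24 h and 8 of 10 in the table of GemMIA-R3 against parental cells. H1, the linker histone class, had 2 of 5 genes in the parental tables, HIST1H1B and HIST1H1C, and HIST1H1D and HIST1H1E in addition in every GemMIA-R3 table. H2A genes numbered 6 of 13 in the parental tables and 10 and 13 of 13 in the GemMIA-R3 tables of CM03 at 6 h and 24 h. H2B genes numbered 8, 13 and 16 of 17, and H3 genes 3, 7 and 9 of 9, in the same order. The table of GemMIA-R3 against parental cells lists 4 H1, 13 H2A, 16 H2B and 9 H3 genes. The class totals count only genes listed in at least 1 table. HIST1H1T, HIST1H4I and HIST1H4J count through the GemMIA-R3 table of CM03 at 24 h alone. The near-complete listing there therefore follows in part from how members were chosen. The coding H4 genes H4C6, H4C7, H4C12, H4C14 and H4C15 are in no table and are left out of the totals.

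**Figure D2:**
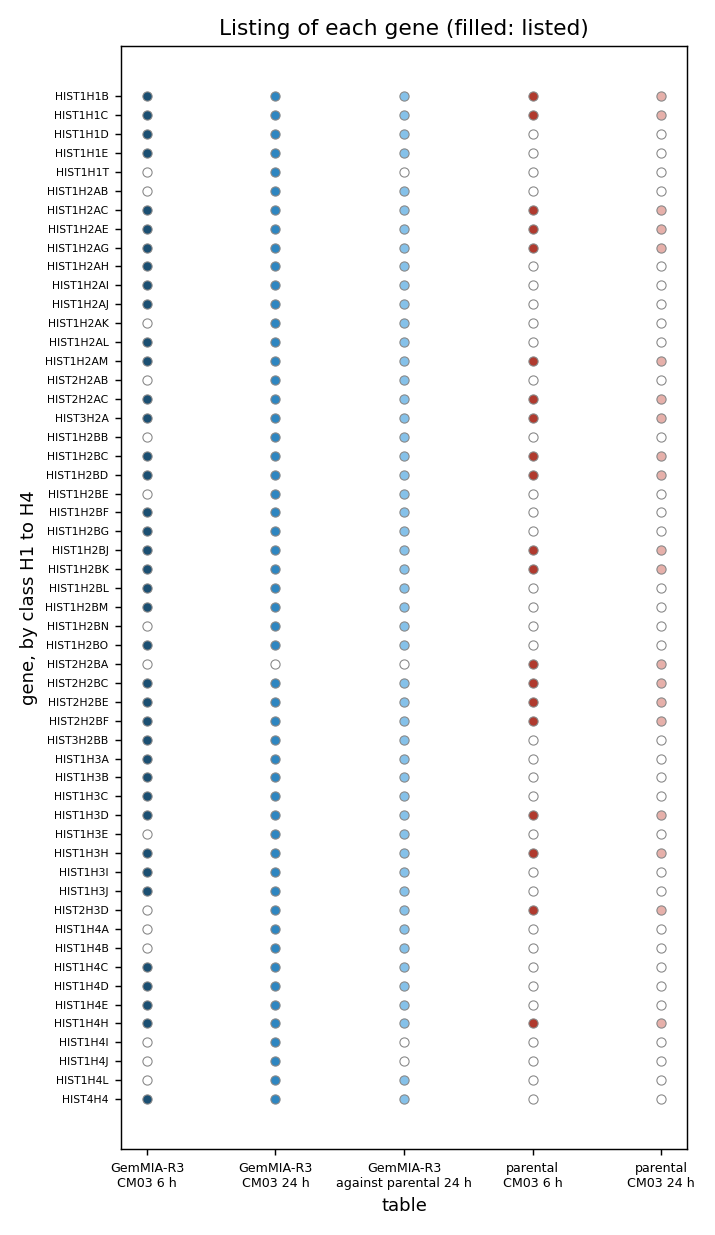
Listing of each of the 54 clustered histone genes (rows, by class) in each of the 5 tables (columns). Filled circles mark a listed gene and open circles a gene that is not listed, and 18 genes are filled in every column.

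The genes fell into 6 patterns of listing. The first comprised 18 genes found in all 5 tables, and these were HIST1H1B and HIST1H1C of H1, 6 H2A genes, 7 H2B genes, HIST1H3D and HIST1H3H of H3, and HIST1H4H. The second comprised 21 genes listed in all 3 tables of GemMIA-R3 cells and in no table of CM03 in parental cells, such as HIST1H3B, HIST1H2AJ, HIST1H4C and HIST4H4. The third comprised 10 genes listed in both 24 h tables of GemMIA-R3 cells alone, such as HIST1H2BE, HIST1H3E and HIST1H4L. HIST1H1T, the linker histone of testis, and HIST1H4I and HIST1H4J were in the table of CM03 at 24 h in GemMIA-R3 cells alone. HIST2H3D was in the parental tables and both 24 h tables of GemMIA-R3 cells. HIST2H2BA, a transcribed pseudogene on chromosome 1, was in the parental tables alone. All 39 genes of the 6 h table of GemMIA-R3 cells were also in the 24 h table, as were 99.9% of all its gene IDs. The parental tables held 84.6% of all gene IDs of the 6 h table and 18 of its members. They held 79.6% of all gene IDs of the 24 h CM03 table and 19 of its members. For the table of GemMIA-R3 against parental cells these were 81.1% and 19 members. The overlaps were not tested. Shares of all gene IDs are given for pairs of tables alone, so how common each pattern is among all genes is not shown. The 24 h tables of GemMIA-R3 cells share their untreated GemMIA-R3 libraries.

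The 44 members of the HIST1 cluster lie on chromosome 6, between 26020451 and 27893891 on GRCh38. The HIST2 cluster on chromosome 1, between 149782689 and 149887965, held 6 members besides HIST2H2BA. HIST3H2A and HIST3H2BB lie together on chromosome 1 from 228457364 to 228458558, and HIST4H4 alone on chromosome 12 from 14770720 to 14771131. The genes were short, with a median length of 493.5 bases in RefSeq. Of the 54 genes, 8 were longer than 1000 bases, from 2224 bases for HIST2H2BE to 29682 for HIST2H2BF, an H2B gene with spliced transcripts.

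Members of the parental tables more often had annotated transcripts that run past the stem-loop. Of 18 coding members in the parental tables, 9 had a GENCODE transcript that ends more than 100 bases past it, against 5 of the 34 coding members that are not in them. Of these 34 genes, 31 are in the table of GemMIA-R3 against parental cells, which rests on libraries of both lines. That listing gives no level in parental cells, so cell line and study cannot be told apart in this split. This comparison and its limit were chosen after the listings were seen, so the counts are a description. HIST1H2AC, HIST1H2BC, HIST1H2BD, HIST1H2BJ, HIST1H3H, HIST1H4H, HIST2H2BE, HIST2H2BF and HIST3H2A made up the first group. The count depends on the annotation. In RefSeq, HIST1H2BK runs on the minus strand to 27138293, beyond its stem-loop at 27146366. In GENCODE it ends 5 bases past the stem-loop and was not counted. The transcript of HIST2H2BE ended 1729 bases past the stem-loop, that of HIST1H4H 7522 and that of HIST1H2BD 12747. The 5 others were HIST1H2BE, HIST1H2BN, HIST1H3E, HIST3H2BB and HIST4H4. Spliced transcripts were annotated for 7 of the 18 and 6 of the 34 genes. The libraries of GemMIA-R3 cells were made with an mRNA kit, the preparation of the parental libraries with CM03 is not given in the sources used here, and the part of library preparation in these counts was not tested.

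**Figure D3:**
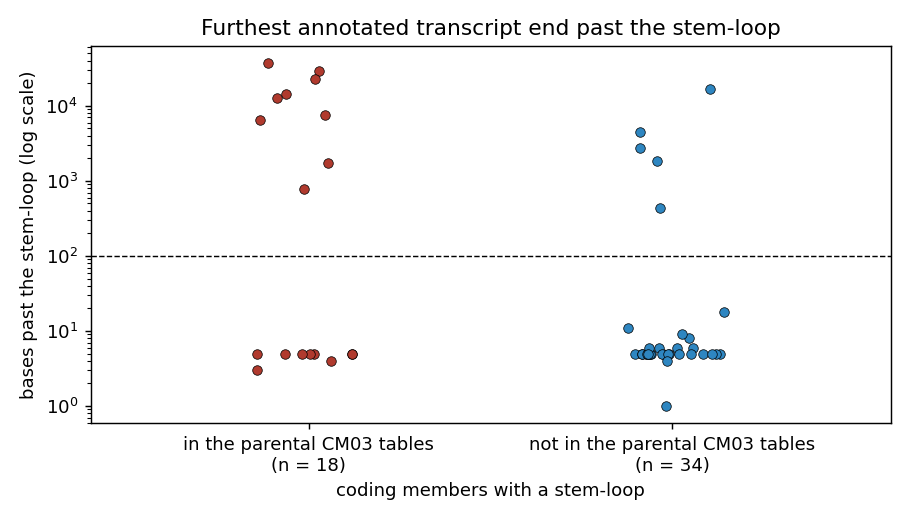
Distance in bases (log scale) by which the furthest GENCODE transcript of each coding histone gene ends past its stem-loop. Shown are the 18 genes in the parental CM03 tables and the 34 that are not in them. Each point is a gene and the dashed line is at 100 bases, which 9 genes of the first group and 5 of the second pass.

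H2A and H2B genes often lie head to head and share the stretch between their starts. Among members, 10 such pairs had starts between 194 and 248 bases apart. In 3 pairs both genes were in the parental tables, namely HIST1H2AC with HIST1H2BC, HIST1H2AG with HIST1H2BJ, and HIST2H2AC with HIST2H2BE. In 4 pairs only 1 gene was, and in 3 pairs neither. HIST1H2AE was in the parental tables without its partner HIST1H2BG, and HIST1H2BK without HIST1H2AH. The pair HIST1H2AK and HIST1H2BN was listed in the 24 h tables of GemMIA-R3 cells alone.

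The bases before the gene start are shown for the first gene by symbol of each class that is in all 5 tables. HIST1H3H stands in place of HIST1H3D. These bases are shown because promoter elements were sought in this stretch. The 150 bases upstream of each start come from RefSeq on GRCh38.p14, on the strand of the gene. Capitals mark TATAAA, the TATA box, CCAAT, the box bound by NF-Y, and ATTTGCAT, the octamer bound by OCT1, each on either strand.
HIST1H1B, chr6:27867589-27867738, minus strand: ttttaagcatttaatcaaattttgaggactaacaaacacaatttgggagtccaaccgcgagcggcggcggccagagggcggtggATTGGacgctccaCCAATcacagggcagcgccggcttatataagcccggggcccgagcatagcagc
HIST1H2AC, chr6:26124022-26124171, plus strand: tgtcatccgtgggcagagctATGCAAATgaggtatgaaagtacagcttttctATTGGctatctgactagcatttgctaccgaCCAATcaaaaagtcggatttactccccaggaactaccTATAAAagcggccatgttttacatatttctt
HIST1H2BC, chr6:26123927-26124076, minus strand: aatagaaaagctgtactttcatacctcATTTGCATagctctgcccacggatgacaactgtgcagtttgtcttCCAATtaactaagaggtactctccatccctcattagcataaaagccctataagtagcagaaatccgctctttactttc
HIST1H3H, chr6:27809901-27810050, plus strand: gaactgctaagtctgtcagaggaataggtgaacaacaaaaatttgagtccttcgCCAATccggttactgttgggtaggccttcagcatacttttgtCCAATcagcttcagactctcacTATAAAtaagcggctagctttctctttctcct
HIST1H4H, chr6:26285535-26285684, minus strand: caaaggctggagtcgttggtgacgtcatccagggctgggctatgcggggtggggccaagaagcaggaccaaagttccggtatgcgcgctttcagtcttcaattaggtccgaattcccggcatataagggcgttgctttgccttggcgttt
The windows of HIST1H2AC and HIST1H2BC overlap on opposite strands, and the octamer in capitals is the same site read from each side. HIST1H4H shows none of the 3 elements in these letters. Only exact matches are in capitals, so a variant of an element, such as a TATA box other than TATAAA, is not marked. HIST1H3D was passed over because RefSeq gives it more than 1 start, and its first start is also that of the H2A gene H2AC7, which no table lists.

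Promoters of 47 members were found in RefSeq, from 250 bases before to 50 after the first start given. CCAAT stood in 41 of them (87.2%), beside 35.7% of all 27305 promoters of the same length. It was in every H1, H2A, H2B and H3 promoter and in 2 of 8 H4 promoters. TATAAA stood in 32 (68.1%), beside 12% of all promoters. The octamer stood in 21 (44.7%), beside 1.8%, in 9 of 12 H2A, 11 of 15 H2B and 1 of 7 H3 promoters and in no H1 or H4 promoter. The H3 match is HIST1H3D, at the start it shares with H2AC7, and at its other start there was none, so that 0 of 7 H3 promoters then held the octamer. By listing, the octamer was in 11 of 18 promoters of genes in the parental tables and 10 of 29 of genes that are not in them, and CCAAT was in 17 and 24. TATAAA was in 12 and 20. These counts are descriptions, since genes of a cluster arose by duplication and are not independent.

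Histone genes held few putative quadruplexes. A PQ is a run of at least 3 guanines followed by 3 more such runs, each after a loop of 1 to 7 bases. PQs were counted over the promoter, exons and introns of each gene. The median of the 20 members in the parental tables was 0 PQs, beside 5 for all 13503 genes. At least 1 PQ was given for 5 members (25%), beside 90.0% of all listed genes. HIST2H2BF had 8 PQs, HIST1H2BD had 2, and HIST1H2BK, HIST2H2BE and HIST2H2BC had 1 each. The other 15 genes, which include every listed H1, H2A, H3 and H4 gene, had 0.

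Length went with the number of PQs. Of the 7 members longer than 1000 bases 4 had at least 1, and of the 13 shorter members 1 did, the pseudogene HIST2H2BC. Among 47 other listed genes of at most 1000 bases, the median was also 0 and 16 (34.0%) had at least 1. The synthesis and processing list had a median of 1.5 PQs and the variant histones outside the clusters a median of 2, with 18 for H2AFY, which encodes macroH2A. The histone chaperones had a median of 5, the same as that of all genes.

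**Figure D4:**
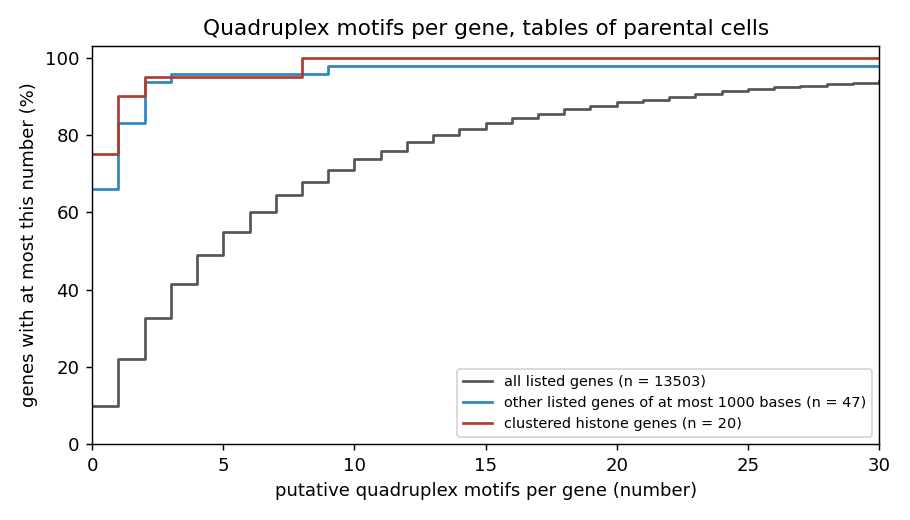
Share of genes (y axis, %) with at most the number of putative quadruplex motifs on the x axis, for the 20 clustered histone genes, all 13503 listed genes, and 47 other listed genes of at most 1000 bases, in the tables of parental cells. The line of the histone genes starts at 75% with 0 motifs and lies far above that of all genes. It includes 7 members longer than 1000 bases. Of the 13 members of at most 1000 bases, 7.69% had at least 1 motif, beside 34.0% of the other short genes.

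Motifs counted anew on GRCh38, over each GENCODE gene and 2000 bases upstream, allowed all but 1 of the members to be described. The median of 53 members was 0, beside 6 for 20033 protein-coding genes. At least 1 motif was found in 18 members (34.0%), beside 90.8%. No H3 gene had a motif, and the highest counts were 8 for HIST2H2BF and 7 for HIST3H2A. Short genes were set here by GENCODE length and for the PQs above by RefSeq length, so the short sets differ. Among genes of at most 1000 bases in GENCODE, 7 of 38 members (18.4%) and 112 of 438 other genes (25.6%) had at least 1. The median GC content of these short members was 58.1%, beside 49.8% for the other short genes. In the 2000 bases upstream alone, 10 of 53 members (18.9%) had a motif, beside 47.5% of protein-coding genes. Among genes of at most 1000 bases these shares were 18.4% of members and 21.9% of other genes. For 19 members with both values, the count was equal to the PQs for 10, higher for 8 and lower for HIST1H2BK. For HIST1H2BK the RefSeq gene spans 8566 bases, and HIST3H2A, with 7 motifs here and 0 PQs, has a GENCODE transcript that ends 22592 bases past its stem-loop.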

How the data were processed

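RNA was sequenced from 18 libraries of an established human cell line and its derivative. Per the labels and the study's methods, the authors used Trimmomatic 0.36 for trimming and STAR 2.5b for alignment, with hg38 as the genome. Duplicates were then marked by JE-Suite from the molecular identifiers, FeatureCounts gave the reads per transcript, and SARTools the comparisons. The 5 deposited tables hold a gene ID, a log2 fold change, an FDR and marks of 0 or 1 for the authors' subsets of genes. These 30 columns are the authors' own comparisons and were not used. The tables of parental cells also give PQs, which the authors took from their earlier study. No library column was found, so replicates, totals and errors could not be given.

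The members and lists were chosen with earlier results of these data known. Older symbols were matched to RefSeq genes by synonym, and all 54 matched. Symbols, positions and promoters are from RefSeq on GRCh38.p14, which is the hg38 assembly, and transcripts from GENCODE release 44. Of the members, 53 matched a GENCODE gene and 47 a promoter. Motifs were counted without overlap on both strands, and stem-loops by the consensus of 16 bases on the gene's strand. The motif and stem-loop search was tested on simulated sequence. Gene lengths were found for 96.6% of the 13503 genes with PQs. Genes were named by class extremes, by patterns of listing, and by presence in all tables; further genes were named after their values were seen. Python 3.11.15, numpy 2.4.6 and matplotlib 3.10.9 were used. The planned test of counts per library was not run.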

Additional observations from a re-analysis of the deposited data

How the results depend on the processing

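The number of listed histone genes did not change in any table when current symbols were also accepted. With all 16616 gene IDs of the 5 tables as the background, the share listed was 77.9%, 85.7%, 84.5%, 81.3% and 81.3% in the tables of CM03 at 6 h and 24 h for GemMIA-R3, of the lines, and of CM03 at 6 h and 24 h for parental cells. PQs were the same in both parental tables for all 13503 genes. The median of the listed genes fell from 5 to 3 PQs for genes no longer than the longest listed member, and to 0 for genes of at most 1000 bases, a limit chosen after seeing the data. For motifs counted on the genome, the median of all protein-coding genes was 6, 12 with loops of 1 to 12 bases and 0 upstream alone. It was 0 for other genes of at most 1000 bases in GENCODE. The members' median was 0 in each case. A window of 250 bases before the start gave the same promoter counts for all 3 elements. For the 4 members with several RefSeq starts, the start nearest the end of the gene, added after seeing the data, left CCAAT in 41 and TATAAA in 32 promoters and the octamer in 20 in place of 21. By listing, the octamer was then in 10 of 18 promoters of genes in the parental tables and TATAAA in 13. With a limit of 500 bases past the stem-loop, chosen after seeing the data, 9 members of the parental tables and 4 others passed. Alternatives that need counts per library (another normalization or test, a filter, leaving out a replicate) were not run. No paired analysis was possible because no value per library was used. The unknown depth and the unstated rule for listing a gene limit every count of listed genes.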
